A study of Caenorhabditis elegans with 2 samples.

Results

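Of the 2000 strongest regions in an ALR-1 list made from both replicates together, 438 (21.9%) had AT-rich DNA at the summit. These strong AT-rich regions are described here against the other 1562. They were chosen by measured signal and by base composition: a region had to rank from 1 to 2000 by the authors' signal value among 30000, and the DNA from 100 bp before to 100 bp after its summit base had to hold at most 32% G or C. A further 10117 regions of the same list met the base composition limit but ranked below 2000, and they serve as AT-rich regions of lower rank. ALR-1 was profiled by ChIP-seq, which sequences the DNA pulled down with a protein, using an antibody against GFP. The material was whole Caenorhabditis elegans L1 larvae, 6 hours old, of mixed sex and starved after bleaching. All animals were of strain OP362, with the genotype unc-119(tm4063) III; wgIs362, in which an integrated transgene supplies ALR-1 with a C-terminal GFP-FLAG tag. There was 1 group of 2 biological replicates and no second condition, so strong AT-rich regions can be compared with other regions but not between treatments. The strain carries alr-1 at its own locus and in the transgene, and the lists do not separate these copies. Whole larvae pool all cell types, so a region cannot be assigned to a tissue.

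ALR-1 is a homeodomain transcription factor known for roles in touch receptor neurons, motor neurons and sensory organs of the worm. Homeodomains contact short AT-rich cores that contain TAAT, and paired-class homeodomains such as that of ALR-1 often read a palindrome of TAAT and its complement ATTA. In the worm genome, introns and intergenic DNA are richer in A and T than coding exons, and long runs of A or of T are frequent there. Such runs stiffen DNA and are known to disfavour nucleosomes.

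The windows of 7 strong AT-rich regions are printed to show what a summit of this kind looks like with and without the homeodomain core site TAATTA. The first 4 are the regions with that site among the 12 of highest signal, and regions 5 and 39 are from the same 12 and lack it. Region 247, upstream of alr-1 itself, also lacks it. Each is the window within 100 bp of the summit on the plus strand of the RefSeq WBcel235 genome, the assembly also named ce11, written 5′ to 3′, with TAATTA in capitals. The windows are chrIII:5707646-5707846 (region 4), chrV:18724169-18724369 (region 7), chrV:5065672-5065872 (region 75), chrIV:1328547-1328747 (region 82), chrIII:833205-833405 (region 5), chrX:13975006-13975206 (region 39) and chrX:11126150-11126350 (region 247).
region 4, hpo-28 intron: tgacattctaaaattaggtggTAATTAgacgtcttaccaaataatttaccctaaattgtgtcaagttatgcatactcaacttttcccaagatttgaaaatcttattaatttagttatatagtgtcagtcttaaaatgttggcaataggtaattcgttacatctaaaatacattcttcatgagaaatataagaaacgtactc
region 7, no protein-coding gene in reach: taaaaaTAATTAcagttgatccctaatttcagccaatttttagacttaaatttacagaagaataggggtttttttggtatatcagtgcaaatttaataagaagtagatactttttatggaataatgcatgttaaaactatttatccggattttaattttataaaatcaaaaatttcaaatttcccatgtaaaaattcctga
region 75, upstream of mlk-1: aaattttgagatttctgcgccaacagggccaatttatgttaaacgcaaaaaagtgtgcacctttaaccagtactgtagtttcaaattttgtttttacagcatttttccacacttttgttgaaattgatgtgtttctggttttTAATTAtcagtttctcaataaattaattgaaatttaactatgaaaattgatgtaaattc
region 82, upstream of F53H1.3: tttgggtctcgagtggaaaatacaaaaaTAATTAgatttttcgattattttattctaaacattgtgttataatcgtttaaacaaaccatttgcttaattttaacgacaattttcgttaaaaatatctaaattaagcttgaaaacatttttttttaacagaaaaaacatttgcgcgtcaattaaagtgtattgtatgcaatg
region 5, zip-2: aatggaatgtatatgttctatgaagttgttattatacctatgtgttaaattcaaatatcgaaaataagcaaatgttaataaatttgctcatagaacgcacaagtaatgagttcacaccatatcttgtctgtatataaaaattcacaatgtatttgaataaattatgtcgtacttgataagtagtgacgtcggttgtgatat
region 39, upstream of F48F7.5: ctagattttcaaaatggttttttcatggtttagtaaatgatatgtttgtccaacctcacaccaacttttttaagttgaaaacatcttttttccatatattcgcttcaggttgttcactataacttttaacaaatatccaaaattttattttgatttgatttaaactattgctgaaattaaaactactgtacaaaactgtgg
region 247, upstream of alr-1: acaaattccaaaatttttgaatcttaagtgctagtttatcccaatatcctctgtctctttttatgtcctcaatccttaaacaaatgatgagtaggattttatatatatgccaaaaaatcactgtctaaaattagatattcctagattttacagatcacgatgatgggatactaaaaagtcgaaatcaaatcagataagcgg
In regions 4, 7, 75 and 82 the site's centre lay 76.5 bp before, 91.5 bp before, 44.5 bp after and 69.5 bp before the summit. The longest run of A or of T in these 4 windows was 4 A, 7 T, 6 A and 9 T, so region 82 alone among the 7 windows printed holds a run of at least 8. Windows 5, 39 and 247 had longest runs of 5 A, 6 T and 6 A.

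The strong AT-rich regions were spread over all chromosomes and stood near varied genes. Their signal ran from 79.6 to 174 with a median of 87.2, against 79.5 to 204 with a median of 88.1 in the other regions of rank 1 to 2000. Mean GC in the window was 28.0% ± 2.82 (SD, n = 438), against 42.0% ± 6.13 (SD, n = 1562) in the other regions. Both measures chose the members, so they are given as a description. At the rank limit, the last member had rank 1997 and a signal of 79.6, and the first AT-rich region outside had rank 2001 and a signal of 79.5. At the composition limit, 35 members had 31.8% GC and 33 regions outside had 32.3%, a step of 1 base in the window. Signal values are the authors' and are comparable within a list only.

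AT-rich summits were less common among strong regions than in the list at large. They made up 13.7% of the 182 peaks that passed the authors' irreproducible discovery rate (IDR) threshold, or 25 regions. The share was 23.6% at ranks 183 to 500, 21% at 501 to 1000 and 23.3% at 1001 to 2000. Further down it was 29.5% at ranks 2001 to 5000, 33.4% at 5001 to 10000 and 37.8% at 10001 to 30000. The list as a whole had 35.2%, and 33.7% of 498866 windows of the same length tiled over the genome met the limit.

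GC within 100 bp of the summit was limited by the rule, so only the DNA outside that window is compared. From there up to 300 bp from the summit, mean GC was 32.6% ± 4.47 (SD, n = 438), against 32.3% ± 4.66 (SD, n = 10117) in AT-rich regions of lower rank. With regions matched in 1-point strata of summit GC, the difference was 0.0973 points (95% interval -0.323 to 0.517). From there to 500 bp the strong regions had 34.8% ± 5.14 and the lower ones 33.9% ± 4.94, a matched difference of 0.808 points (0.318 to 1.30). In the other strong regions these flanks averaged 38.9% and 37.0%. Beyond the summit itself, the strong AT-rich regions therefore sat in DNA close in composition to that around AT-rich regions of lower rank, and slightly higher in GC beyond 300 bp.

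**Figure D1:**
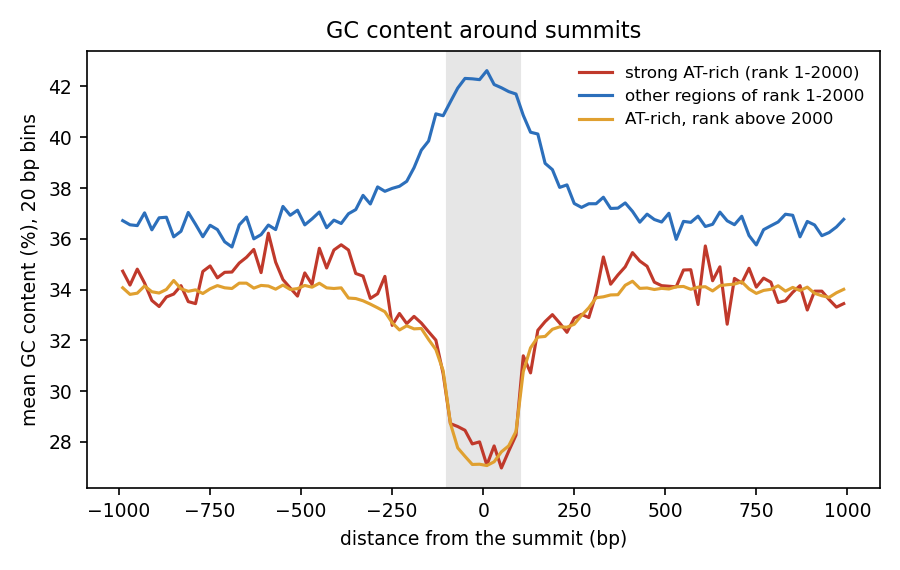
Mean GC content (%) in 20 bp bins against distance from the summit (bp) for strong AT-rich regions (n = 438), other regions of rank 1 to 2000 (n = 1562) and AT-rich regions of lower rank (n = 10117); the grey band is the window the rule used. Both AT-rich curves fall to about the same trough, while the other strong regions rise to a peak at the summit.

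The 12 strong AT-rich regions of highest signal were led by 3 that ranked in the top 182 of both replicates. The first, of pooled rank 3, lay on chromosome I at 2177682 to 2178045 in an intron of afd-1, which encodes the junction protein afadin. Its signal was 174, and it ranked 26 in replicate 1 and 1 in replicate 2. Region 4, on chromosome III at 5707564 to 5707927, lay in an intron of hpo-28 with a signal of 162 and ranked 12 in replicate 1 and 3 in replicate 2. Region 5, on chromosome III at 833123 to 833486 with a signal of 152, ranked 17 and 15. It lay 323 bp downstream of the 5′ end of zip-2, a bZIP transcription factor gene, and 1028 bp upstream of ceeh-1, an epoxide hydrolase gene. The long non-coding RNA gene linc-37 and the snoRNA gene K02F3.15 were also in reach. In reach means no more than 1500 bp upstream or 500 bp downstream of a gene's 5′ end. These were the only members in the top 182 of both lists, and 11 members were in the top 500 of both.

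The next regions were less even between the replicates. Region 7, on chromosome V at 18724087 to 18724450 with a signal of 145, ranked 2 in replicate 1 and 1050 in replicate 2 and had no protein-coding gene in reach. Region 18, on chromosome IV at 7791581 to 7791944 with a signal of 139, ranked 604 and 5. Its summit was in the 3′ UTR of C33H5.13 and 534 bp upstream of rsp-6, which encodes an SR splicing factor. Region 39 on chromosome X, 547 bp upstream of F48F7.5, ranked 374 in replicate 1 and 31 in replicate 2. Region 57 on chromosome I was 1363 bp upstream of otub-2, a deubiquitinase gene, and ranked 552 and 47. Region 62 on chromosome IV, in an intron of the kinesin-II motor gene klp-11 and inside F20C5.11, ranked 410 and 32. Region 68 on chromosome I, in a coding exon of let-391, was 995 bp upstream of szy-5 and ranked 726 and 125. Of these 6 regions, 5 stood higher in replicate 2.

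The last 3 of the 12 lay upstream of genes. Region 75 on chromosome V was 961 bp upstream of mlk-1, which encodes a MAP kinase kinase kinase, and ranked 737 in replicate 1 and 45 in replicate 2. Region 77 on chromosome V, between num-1, the worm Numb gene, at 428 bp and sbt-1, which encodes a chaperone of proprotein convertases, at 502 bp, ranked 88 and 1604. Region 82 on chromosome IV, 515 bp upstream of F53H1.3, ranked 84 and 1019. All 12 regions were in the top 2000 of both replicates, 8 had a protein-coding gene in reach, and 4 held TAATTA.

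Few strong AT-rich regions stood at the top of both replicate lists. Ranks in the replicates are part of what formed the pooled signal, so they are described without a test. Of the 438 members, 425 (97.0%) had a summit within 200 bp in both replicate lists, against 1508 of the other 1562 (96.5%). Each list holds 30000 regions, so this is a weak condition, and a region missing from a list need not have a signal of 0. In the top 2000 of both replicates there were 71 members (16.2%), against 337 other regions (21.6%), where the share over all 2000 regions was 20.4%. Members passing the IDR threshold numbered 25 (5.71%), against 157 others (10.1%), where the share over all 2000 was 9.1%. The IDR peaks are the regions of pooled rank 1 to 182, so this count restates the rank that the rule used. It is no separate measure of how the replicates compare. Another 99 members (22.6%) and 267 other regions (17.1%) reached the pooled top 2000 without being in the top 2000 of either replicate.

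Strong AT-rich regions leaned towards replicate 2, as did AT-rich regions of lower rank. Their median rank was 2853 in replicate 1 and 1679 in replicate 2, while the other regions had medians of 1691 and 1852. Among those with a summit in both lists, 256 of 425 members (60.2%, exact 95% binomial interval 55.4 to 64.9) ranked better in replicate 2, against 738 of 1508 other regions (48.9%, 46.4 to 51.5). AT-rich regions of lower rank had 2116 of 3973 (53.3%, 51.7 to 54.8) and the remaining lower regions 3448 of 7140 (48.3%, 47.1 to 49.5). The intervals cover the counting of regions only, and regions are not replicates. Replicate ranks also helped to form the groups, so the lean is a description and was not tested. Members in the top 2000 of replicate 2 only numbered 168 (38.4%), against 467 others (29.9%), and 100 members (22.8%) were in that of replicate 1 only, against 491 others (31.4%). By class, the 136 intergenic members had median ranks of 3607 in replicate 1 and 1370 in replicate 2, and the 117 intronic ones 2316 and 1704.5. The 133 promoter members stood closer, at 2478 and 1943.5.

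The lists themselves differed in base composition. Of replicate 1's own top 2000, 348 regions (17.4%, 15.8 to 19.1) were AT-rich, and of replicate 2's own top 2000, 584 were (29.2%, 27.2 to 31.2). Over the whole lists the shares were 32% and 36.9%, nearer to each other than at the top. The part of this difference in the number of strong AT-rich regions was not tested, since there are 2 libraries and their depth is not known. Choosing AT-rich regions in the same way in each replicate gave 69 of the 348 in replicate 1 (19.8%) with a partner among the 584 of replicate 2, and 11.8% of the 584 the other way. For the remaining regions of each top 2000, 1652 in replicate 1 and 1416 in replicate 2, these shares were 20.8% and 24.4%. Such shares depend on the sizes of both sets, which differ here, so they do not compare how well the groups repeat.

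**Figure D2:**
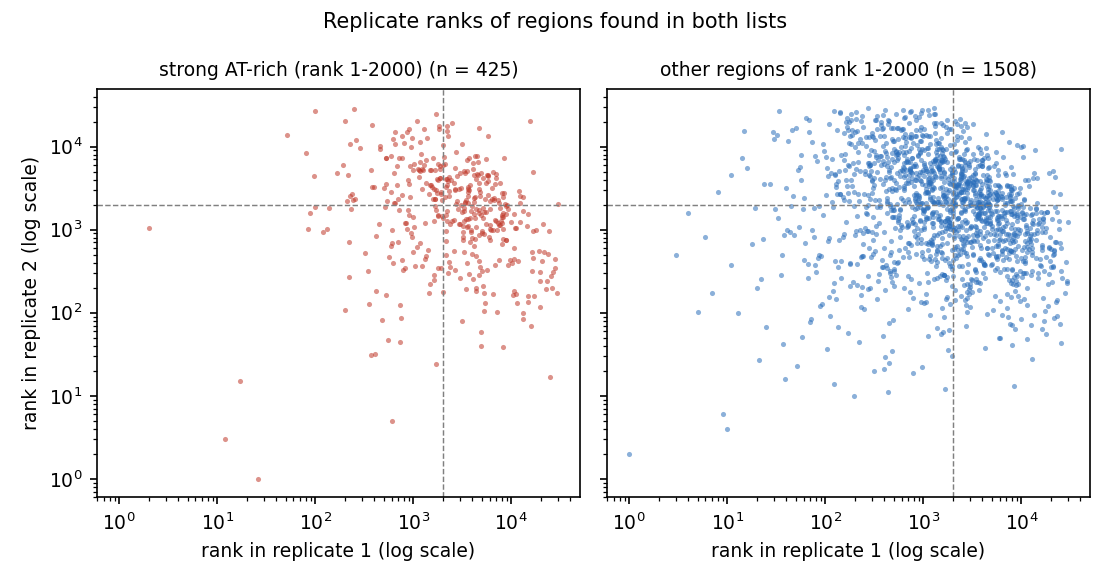
Rank in replicate 1 (horizontal) and rank in replicate 2 (vertical), both on log axes, for the 425 strong AT-rich regions and the 1508 other regions of rank 1 to 2000 with a summit in both lists; each point is a region and the dashed lines mark rank 2000. In the AT-rich panel, 71 regions lie at the lower left of both dashed lines. Of these, only the afd-1, hpo-28 and zip-2 regions are in the top 182 of both lists, a limit that is not drawn. More points of this panel lie beyond rank 2000 of replicate 1, to the right of the vertical line, than beyond rank 2000 of replicate 2.

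Members lay mainly outside coding sequence, as did AT-rich regions of lower rank. Each summit was given a class, with promoters, the DNA between 500 bp upstream and 100 bp downstream of the 5′ end of a gene of any type, ahead of UTRs, then exons, introns and intergenic DNA. Strong AT-rich summits were intergenic in 136 cases (31.1%), in promoters in 133 (30.4%), in introns in 117 (26.7%) and in coding exons in 33 (7.53%). A further 12 lay in 3′ UTRs, 4 in 5′ UTRs and 3 in non-coding exons. The other strong regions had 139 intergenic summits (8.90%), 250 in promoters (16.0%), 341 in introns (21.8%) and 765 in coding exons (49.0%). The odds ratio of the strong AT-rich against the other regions was 0.0849 for coding exons (interval adjusted over 7 classes, 0.0512 to 0.141), 4.61 for intergenic DNA (3.20 to 6.65) and 2.29 for promoters (1.64 to 3.20). For introns it was 1.31 (0.935 to 1.82), an interval that includes 1, while it was 1.49 (1.10 to 2.02) in replicate 2's list alone and 1.91 (1.34 to 2.71) in replicate 1's. The intron interval also lay above 1 at a GC limit of 34% (1.52, 1.12 to 2.07), with GC taken within 50 bp of the summit (1.82, 1.33 to 2.48), at ranks 1 to 4000 (1.33, 1.07 to 1.66) and with promoters from 2000 bp up to 200 bp down (1.56, 1.07 to 2.29). Among the IDR peaks alone the promoter odds ratio was 1.02 (0.239 to 4.33). These intervals cover the counting of regions only, and GC content, fixed by the rule, differs between the groups compared.

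Against AT-rich regions of lower rank, no class differed beyond its interval once GC was matched. Promoters had an odds ratio of 1.18 (0.882 to 1.57), intergenic DNA 1.12 (0.841 to 1.49), coding exons 1.35 (0.809 to 2.26) and introns 0.754 (0.561 to 1.01). In replicate 1's list alone 1 class differed, which was not introns, at 0.929 (0.677 to 1.27) there. The lower-ranked regions had 27.2% in promoters, 28.6% intergenic, 5.33% in coding exons and 33.1% in introns. AT-rich windows tiled over the genome had 23.1%, 28.6%, 4.65% and 38.2% in these classes, so introns made up 26.7% of the strong regions, 33.1% of the lower ones and 38.2% of the genome's AT-rich windows. The promoter call rests on the gene types counted. With 5′ ends of protein-coding genes alone, 56 members (12.8%) against 158 other strong regions (10.1%) were promoters, an odds ratio of 1.30 (0.834 to 2.04), and the intron odds ratio became 1.65 (1.20 to 2.26).

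**Figure D3:**
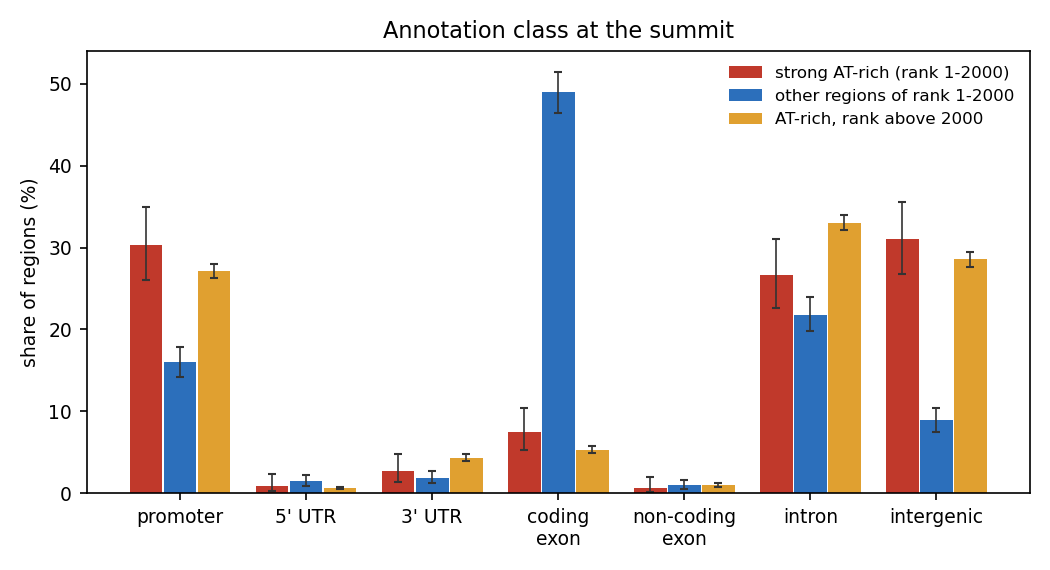
Share of regions (%) in each annotation class at the summit for strong AT-rich regions (n = 438), other regions of rank 1 to 2000 (n = 1562) and AT-rich regions of lower rank (n = 10117); bars are shares and whiskers exact 95% binomial intervals. Coding exons hold 7.53% of the strong AT-rich regions and 49.0% of the other strong regions, and the AT-rich groups have similar profiles.

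Chromosome X held a larger share of the strong AT-rich regions than of the other strong regions, and chromosome III a smaller one. On X there were 82 members (18.7%), against 141 other strong regions (9.03%), an odds ratio of 2.32 (interval adjusted over 6 chromosomes, 1.56 to 3.46). On chromosome III there were 61 (13.9%), against 335 (21.4%), an odds ratio of 0.593 (0.398 to 0.883). Chromosome IV held the most members, 105 (24.0%), against 304 (19.5%), and its interval of 0.929 to 1.83 included 1, as did those of chromosomes I, II and V. Against AT-rich regions of lower rank no chromosome differed beyond its interval, with 20.8% on X and 12.2% on III in that group. In replicate 1's list alone 1 chromosome differed from the other strong regions, and in replicate 2's 3 did. Members seldom stood close together: 2 lay within 1000 bp of the next member and 28 within 10000 bp, and the median gap was 136362 bp.

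The core site TAATTA, which is its own reverse complement, occurred in 70 members (16.0%, exact 95% interval 12.7 to 19.8), against 87 other strong regions (5.57%) and 1775 AT-rich regions of lower rank (17.5%). Of all 30000 windows of the list, 10.4% held it. The comparison with the other strong regions is given as a description, since a site of A and T follows the composition that the rule used. At matched GC, the odds ratio against AT-rich regions of lower rank was 0.911 (95% interval 0.701 to 1.18), so no difference was detectable and the interval admits a change in either direction. In replicate 1's list alone it was 1.23 (0.936 to 1.61). The 70 members held 81 sites, whose centres lay a median 49.5 bp from the summit. Within 50 bp of the summit the site occurred in 38 members (8.68%), against 2.69% of the other strong regions and 9.31% of the lower AT-rich ones, with a matched odds ratio of 0.948 (0.674 to 1.33) against the lower ones.

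No other form of the site differed beyond its interval from the lower AT-rich regions at matched GC. At least 2 copies of TAATTA, overlapping copies counted, occurred in 10 members (2.28%), 8 other strong regions (0.512%) and 204 lower AT-rich regions (2.02%), with a matched odds ratio of 1.17 (0.617 to 2.24). The shorter TAAT, searched on both strands, occurred in 97.7% of members, 74.3% of the other strong regions, 97.0% of the lower AT-rich regions and 85.5% of all 30000, with a matched odds ratio of 1.34 (0.708 to 2.55). The paired-class palindrome with TAAT and ATTA 2 bases apart occurred in 7 members (1.60%), 11 other strong regions (0.704%), 208 lower ones (2.06%) and 1.08% of the whole list, with a matched odds ratio of 0.797 (0.372 to 1.71). With 3 bases between, the counts were 6 (1.37%), 15 (0.960%) and 207 (2.05%), and 1.18% of the whole list, with a matched odds ratio of 0.675 (0.298 to 1.53). Both palindromes contain the shorter TAAT, so every region with a palindrome is also in the TAAT count. By rank among AT-rich regions, TAATTA was in 23 of the 100 regions of rank 1 to 500 (23%, 15.2 to 32.5), 8.57% at 501 to 1000 and 16.3% at 1001 to 2000. It was in 20% at ranks 2001 to 5000 and between 16.2% and 18.2% below that, with no order along the list.

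Long runs of A or of T were scarcer in strong AT-rich regions than in AT-rich regions of lower rank. A run of at least 8 A or 8 T, a length set after seeing the data, occurred in 78 members (17.8%, 14.3 to 21.7), against 96 other strong regions (6.15%), 3238 lower AT-rich regions (32%) and 17.8% of all 30000. At matched GC the odds ratio against the lower AT-rich regions was 0.475 (95% interval 0.369 to 0.611). The share went up along the list, from 13% at ranks 1 to 500 through 19.0% and 19.3% within the top 2000 to 26.6%, 29.4%, 31.9% and 34.5% further down. Mean GC over the same steps stayed between 27.6% and 28.1%. Runs of at least 10 gave 13 members (2.97%), 1.09% of the other strong regions and 7.45% of the lower AT-rich ones, with a matched odds ratio of 0.403 (0.230 to 0.706).

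Runs were also scarcer in strong regions above the GC limit. Among regions above 32% GC, strong against lower-ranked ones had an odds ratio of 0.662 (0.534 to 0.821) for runs of at least 8. The ratio of these odds ratios, AT-rich over the rest, was 0.717 (0.515 to 0.999), so the interval for a stronger effect in AT-rich regions reached almost to 1. Of all 6-base words, counted in AT-rich windows with both strands joined, none (0%) was more frequent in strong AT-rich regions than in lower ones at an interval adjusted over all words. The only word less frequent (0.0481%) was AAAAAA with its complement TTTTTT, in 291 members (66.4%), against 7948 lower AT-rich regions (78.6%), an odds ratio of 0.556 (0.355 to 0.872). Every run of at least 8 A or 8 T contains this word, so it is no separate measure of the runs. A word absent from either group had no interval and could not be called. An example is ACGCGA, in 0 members against 149 lower AT-rich regions (1.47%). In replicate 2's list alone 2 words passed. A 31-base word found elsewhere in the genome occurred in 30 members (6.85%), 158 other strong regions (10.1%) and 826 lower AT-rich regions (8.16%), and 0 members had such words over most of the window, which allows a share of up to 0.839%. The odds ratio was 0.653 (95% interval 0.436 to 0.980) against the other strong regions and 0.824 (0.565 to 1.20) against the lower AT-rich ones, and in replicate 2's list alone the last of these was 0.677 (0.478 to 0.960).

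**Figure D4:**
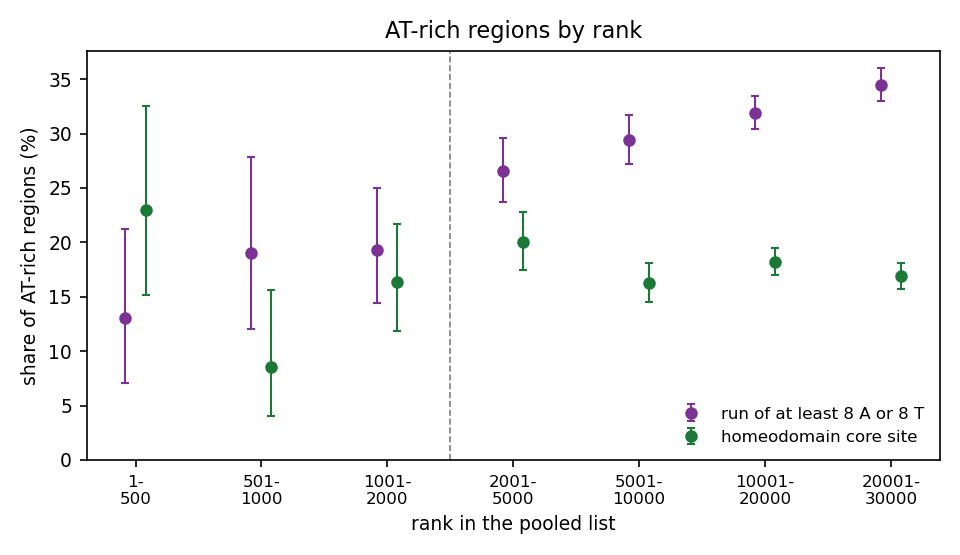
Share of AT-rich regions (%) with a run of at least 8 A or 8 T (purple) and with the homeodomain core site (green) by rank in the pooled list, with exact 95% binomial intervals; the dashed line marks rank 2000. The run share goes up from 13% to 34.5% along the list while the core site share shows no order.

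No difference from other strong regions was detectable in how often a protein-coding gene was in reach of a strong AT-rich region. A protein-coding gene was in reach of 182 members (41.6%), against 631 other strong regions (40.4%), an odds ratio of 1.05 (95% interval 0.846 to 1.30), and in replicate 1's list alone it was 1.32 (1.04 to 1.66). AT-rich regions of lower rank had 3612 (35.7%), with a matched odds ratio of 1.26 (1.04 to 1.53). That interval included 1 at a GC limit of 30% (1.17, 0.930 to 1.48), with GC taken within 200 bp of the summit (1.14, 0.929 to 1.41) and for a reach of 500 bp up and 100 bp down (1.07, 0.806 to 1.43), and the ratio was 0.917 (0.705 to 1.19) for a 5′ end within 5000 bp. Strong regions above 32% GC showed a like ratio of 1.37 (1.23 to 1.52) against their lower-ranked counterparts, and the ratio of the ratios was 0.923 (0.740 to 1.15). The median distance from the summit to the nearest coding 5′ end was 1466.5 bp for members, against 1319 bp for other strong and 1608 bp for lower AT-rich regions. Members inside a protein-coding gene numbered 209 (47.7%), against 1330 other strong regions (85.1%) and 51.9% of lower AT-rich regions. The odds ratio was 0.159 (0.126 to 0.201) against the other strong regions and 0.852 (0.703 to 1.03) against AT-rich regions of lower rank.

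Counted by gene, 223 of the 9923 protein-coding genes with any listed summit in reach (2.25%) had a strong AT-rich one, and 835 (8.41%) had another strong one. The lists below were chosen with results of these data known, so their counts are read against 2.25% and carry no test. Homeobox genes had 2 of 53, alr-1 itself and ceh-20. On chromosome X, region 247 (11126068 to 11126431, signal 105) lay 630 bp upstream of the 5′ end of alr-1 and ranked 370 in replicate 1 and 5230 in replicate 2. Region 490 (11123342 to 11123705, signal 96.0) lay in an intron of alr-1, 2096 bp from the 5′ end, and ranked 215 and 4530. Both alr-1 regions were thus higher in replicate 1, unlike most members, and neither window held TAATTA. The gene ceh-20 is a Pbx and Extradenticle homologue that partners Hox proteins, with region 576 lying 247 bp upstream and ranking 1660 and 5255. The list also took in lim-9 by name, which encodes a LIM domain protein without a homeodomain and has region 979 in an intron.

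Other transcription factor families had small counts. Nuclear hormone receptor genes had 6 of 127 (4.72%), with 4 reached by other strong regions. Region 658, in an intron 494 bp into nhr-40, ranked 3995 in replicate 1 and 507 in replicate 2 and held TAATTA. Region 604 lay inside nhr-49, a regulator of fat metabolism, with ranks of 2393 and 1153 and TAATTA 10.5 bp after the summit. Region 310 lay in nhr-87 with ranks of 1838 and 16377 and TAATTA 33.5 bp before the summit. Regions 604 and 310 lay inside their genes but not in reach of the 5′ ends, so they are not among the 6. The regions named here are the highest ranked at such genes, and the site was not general among them. Regions 724 (nhr-255), 856 (nhr-123), 970 (nhr-47), 1021 (nhr-281), 1054 (nhr-20) and 1160 (nhr-22) held no TAATTA. The bHLH genes had 2 of 13, hlh-11 and hlh-17. Region 197, 874 bp upstream of hlh-11, ranked 9 in replicate 2 and had no replicate 1 summit within 200 bp, so its place rests on replicate 2. Region 1906, 1192 bp upstream of hlh-17, a glial gene, ranked 2444 and 3958.

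Neuronal lists held few genes with a member in reach, and the pan-neuronal share was near the background of 2.25%. The pan-neuronal and synaptic list had 1 of 43, unc-51, which encodes the kinase that starts autophagy and is needed for axon growth. Region 179 lay 873 bp upstream of it and ranked 4922 in replicate 1 and 40 in replicate 2. Inside genes of this list lay region 826 in egl-10, a regulator of G protein signalling, with ranks of 1540 and 3269, and region 941 in unc-104, the synaptic vesicle kinesin, with ranks of 3899 and 995. Axon guidance and adhesion genes had 1 of 31, the semaphorin smp-2, with region 854 at ranks of 3187 and 1099, and region 1576 lay inside ptp-3, a LAR receptor phosphatase, at 27758 and 437. Neuropeptide genes had 0 of 45 in reach, and region 1101 lay in an intron of flp-25 with ranks of 4603 and 4496. Chemoreceptor genes had 6 of 510 (1.18%), with sri-18, sru-2 and srg-46 the highest placed. Potassium channel genes had 1 of 28, twk-18, with region 1337 in an intron at ranks of 14527 and 1111.

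Ribosomal protein genes stood near the background for strong AT-rich regions. They had 2 of 64 (3.12%) with a strong AT-rich region in reach, beside 2.25% over all protein-coding genes, against 23 of 64 (35.9%) with another strong region, beside 8.41% over all. Region 324, 706 bp upstream of rpl-3, ranked 25112 in replicate 1 and 17 in replicate 2 and held TAATTA 8.5 bp after the summit. Region 814, 47 bp into rpl-7, ranked 3756 and 718. Heat shock and chaperone genes had 2 of 29 (6.90%), dnj-19 and dnj-9, against 9 (31.0%) with another strong region, beside the same 2.25% and 8.41%. Collagen genes had 0 of 79, C-type lectin genes 0 of 109 and F-box genes 2 of 107.

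Genes for piRNAs were more often near members than near other strong regions, and no difference from AT-rich regions of lower rank was detectable. A piRNA gene, which encodes a short germline RNA and lies mostly in clusters on chromosome IV, was in reach of 55 members (12.6%), 52 of them on chromosome IV. The other strong regions had 62 (3.97%) and the lower AT-rich regions 1430 (14.1%), where the share over all 30000 listed regions was 7.85%. The odds ratio was 3.47 (2.38 to 5.08) against the other strong regions and 0.888 (0.664 to 1.19) against the lower AT-rich ones. Genes for snoRNAs were in reach of 6 members (1.37%), 29 other strong regions (1.86%) and 60 lower AT-rich regions (0.593%), beside 0.88% of all listed regions. The matched odds ratio against the lower AT-rich regions was 2.36 (1.01 to 5.49), which rests on those 6 regions and was not adjusted over the gene types compared. Genes for tRNAs were in reach of 8 members (1.83%), 15 other strong (0.960%) and 111 lower AT-rich regions (1.10%), beside 1.14% of all listed regions. Genes for miRNAs were in reach of 3 (0.685%), 15 (0.960%) and 52 (0.514%), beside 0.517%. Among genes with any listed summit in reach, a member was in reach of 92 of 3869 genes annotated as ncRNA (2.38%), 3 of 82 lincRNA genes (3.66%), 12 of 744 pseudogenes (1.61%) and 0 of 46 snRNA genes (0%), where protein-coding genes had 2.25%. The muscle miRNA gene cel-mir-1 had region 801 lying 1409 bp upstream of it and ranking 3975 in replicate 1 and 790 in replicate 2.

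**Figure D5:**
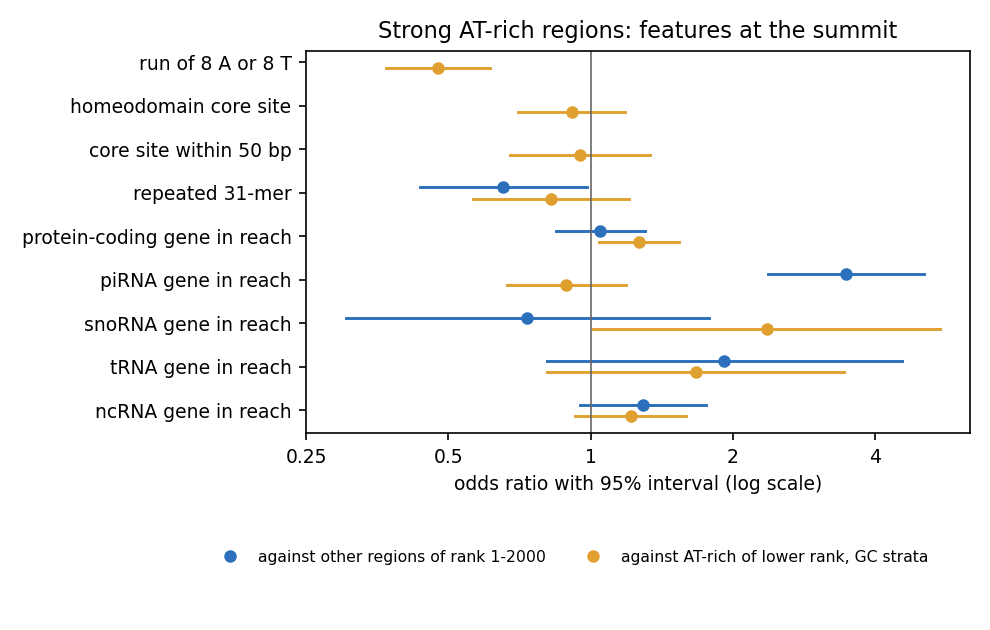
Odds ratio with 95% interval on a log axis for features of strong AT-rich regions (n = 438), against other regions of rank 1 to 2000 (blue, n = 1562) and against AT-rich regions of lower rank in 1-point GC strata (yellow, n = 10117); a value above 1 is more frequent in strong AT-rich regions. Runs of at least 8 A or T stand at 0.475, left of 1 with their whole interval, and piRNA genes at 3.47 against the other strong regions only. Further intervals that leave out 1 are those of repeated 31-mers against the other strong regions (0.653). Against the lower AT-rich regions they are those of a protein-coding gene (1.26) and a snoRNA gene (2.36) in reach. For features spelled in A and T the comparison with the other strong regions is not drawn, since the rule set it.

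A few genes were met by more than a single member. There were 9 such genes, each with 2 members: alr-1, F53H1.3, T05A12.4, Y9C9A.13, fkh-7, rpom-1, soc-2, tom-1 and zoo-1. For comparison, 223 protein-coding genes had a member in reach and 208 had a member inside. The same count for other strong regions is not given here, so whether 2 members in a gene is unusual was not tested. The gene tom-1, which encodes tomosyn, an inhibitor of transmitter release, had region 323 at 1447 bp upstream and region 1299 inside. Region 323 ranked 1768 in replicate 1 and 343 in replicate 2, and region 1299 ranked 993 and 542. The gene soc-2, a scaffold of Ras signalling, had regions 346 and 354 in its introns on chromosome IV, both with TAATTA. In the class counts both were promoters, which go ahead of introns, but of genes other than protein-coding ones. With 5′ ends of protein-coding genes alone both were introns, and the nearest such end lay 8438 bp (region 346) and 6875 bp (region 354) away. Region 346 ranked 788 in replicate 1 and 323 in replicate 2, and region 354 ranked 767 and 2614. The forkhead gene fkh-7 had regions 952 and 1444 in its introns. Region 952 was likewise counted as a promoter, with the nearest protein-coding 5′ end 11881 bp away. Region 952 ranked 1337 in replicate 1 and 6853 in replicate 2, and region 1444 ranked 3615 and 1347. These genes with 2 members were listed after their values were seen.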

How the data were processed

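Anti-GFP ChIP-seq region lists of 1 group of 2 biological replicates were analysed. Chromatin was sonicated and the assembly was ce11, per the labels. The text files among the deposited ones say that a list of peaks and background was derived for each replicate from its alignments and a control, another from both replicates together, and the IDR peaks from these. Which aligner, caller and threshold were used is not given in the sources used here. Control data were not analysed here. The deposited values are signal values of the authors' caller and were used for ranks inside a list only. Each list holds 30000 regions, ending at a signal of 21.8 (replicate 1) and 23.3 (replicate 2). Depth per sample is unknown. Intervals cover the counting of regions only, and regions are not replicates. With 1 group, no test over samples could be run.

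Genes came from Ensembl release 115 and sequence from the RefSeq WBcel235 genome. Odds ratios have Woolf 95% intervals against other strong regions, and Mantel-Haenszel ones over 1-point GC strata against AT-rich regions of lower rank. Intervals were widened by Bonferroni's rule over 7 classes, 6 chromosomes or all 6-base words, and those of single features were not. Repeated words are of 31 bases. Named are the 12 members of highest signal with their genes, those at each limit, up to 3 genes per list and alr-1. Genes with 2 members were added after seeing values. The members and lists were chosen with earlier results of these data known. Alternatives covered limits, windows, ranks, replicates, gene reach and motif forms. The comparisons of runs, small RNA genes, flanks and rank steps were chosen after seeing the data. The statistics were tested on simulated data. Software was Python 3.11.15 (numpy 2.4.6, scipy 1.17.1, pandas 2.3.3, matplotlib 3.10.9).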

Additional observations from a re-analysis of the deposited data

How the results depend on the processing

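Of 192 alternative values, 148 were labelled the same, by a loose rule. A count could change moderately, so 318 to 584 members were labelled the same as 438. An odds ratio had to stay on the same side of 1, with its interval still including or excluding 1. A share had to stay inside the main interval. In results against AT-rich regions of lower rank, the run of at least 8 A or T stayed below 1 under every alternative run, with 0.519 to 0.600 in the single-replicate lists. The TAATTA odds ratio, 0.911 and never distinct from 1, turned to 1.00 with GC taken within 50 bp of the summit, 1.03 at ranks 1 to 4000, 1.17 for at least 2 copies and 1.34 for TAAT, and was 0.989 to 1.23 in the single-replicate lists. A gene in reach against other strong regions, 1.05, turned to 0.907 at a GC limit of 30%, 0.999 with GC within 50 bp, 0.924 with GC within 200 bp and 0.881 for a 5′ end within 5000 bp, and was 1.12 to 1.32 in the single-replicate lists. Against AT-rich regions of lower rank it was 1.17 at 30%, 1.14 with GC within 200 bp and 1.07 for a reach of 500 bp up and 100 bp down, all with intervals that include 1, and 0.917 for a 5′ end within 5000 bp. The TAATTA odds ratio against other strong regions, 3.22, was 2.29 and 1.43 for the pairs with 2 and 3 bases between. The number of members was 205 at ranks 1 to 1000, 1012 at 1 to 4000 and 25 for IDR peaks. Called classes against other strong regions numbered 5 at ranks 1 to 4000, and against lower AT-rich regions 1 without GC strata and 0 to 1 in the single-replicate lists. Called 6-base words numbered 2 at 30%, 0 at ranks 1 to 1000 and 1 to 2 in the single-replicate lists. Called chromosomes numbered 4 at ranks 1 to 4000, 0 for IDR peaks and 1 to 3 in the single-replicate lists. The share in both replicates was 98.5% at ranks 1 to 1000, 93.5% at 1 to 4000, 100% for IDR peaks, 88.6% for summits within 100 bp and 16.2% within the top 2000 of both. Repeated 31-mers, 0.824, were 0.664 to 0.677 in the single-replicate lists, where only that of replicate 2 excluded 1. The cause was not tested for any of these.

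Runs of 7 and 10 and the alternative of at least 10 repeated 31-mers were chosen after seeing the data. For IDR peaks, comparisons with lower-ranked regions, 6-base words and 31-mers gave no value, nor did presence in both lists for a single replicate's list. No paired analysis was possible because the design has 1 group. Depth is unknown, so precision is limited by the number of regions and by having 2 libraries.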
